A study of Homo sapiens with 8 samples.

Results

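The genes described here are the eukaryotic initiation factors, taken as every row of the authors' deposited table whose symbol starts with EIF, without the EIF2AK kinases and the EIF4EBP proteins. They are 35 of the 4616 genes of that table, and the symbol alone sorted them into EIF1 (2 genes), EIF2 (4), EIF2B (5), EIF3 (12), EIF4 (8), EIF5 (3) and EIF6 (1). The RefSeq gene table lists 48 protein-coding genes under the same rule outside the Y chromosome, and 13 of them had no row and were not analysed here, among them EIF3C, EIF4A1, EIF4E and EIF2D. The cells were WM902B, a line from a primary human melanoma with BRAFV600E, infected with a hairpin against the long non-coding RNA TINCR (shTINCR) or with the control hairpin shSCR. Both kinds of cells were at passage 18 and received 100 µg/ml cycloheximide for 5 min, which holds elongating ribosomes in place. Sequencing covered ribosome-protected fragments and RNA of 2 biological replicates of each condition, in 8 libraries. The titles call the RNA total RNA and another label calls it polyA RNA. The labels name 1 line and 1 hairpin per condition, and TINCR had 0 rows, so its silencing was not checked. Of 7 melanocyte markers 6 had a row in the table, against 0 of 14 markers of keratinocytes, fibroblasts, endothelial cells and leukocytes.

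Initiation factors bring the initiator tRNA and the small ribosomal subunit to the mRNA and then let the large subunit join. The trimeric GTPase eIF2 carries the initiator tRNA and is recharged with GTP by its exchange factor eIF2B, whereas the multi-subunit scaffold eIF3 holds the small subunit and contacts the cap-binding complex eIF4F. The mRNAs of ribosomal proteins and of several of these factors begin with a pyrimidine tract at the cap, through which their translation follows the activity of the kinase mTORC1.

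Each gene had 1 translational efficiency (TE, footprints over mRNA) per condition on a log2 scale, 1 log2 change of shTINCR over shSCR and 1 adjusted p, all made by the authors. Because TE is a ratio, gene length cancels if footprints and mRNA were counted over the same stretch, which the sources used here do not state. The table held 0 values of single libraries, so the spread between replicates and the depth are unknown, and a change of footprints cannot be told apart from an opposite change of mRNA. The values are averages over the culture, so a shift in every cell and a shift in the make-up of the culture cannot be told apart. As the only measure of precision, each change was divided by the normal deviate of its p-value, which gave implied standard errors (SE) of 0.0753 to 0.156 for the 35 factors on the log2 scale.

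TE of 13 of the 35 initiation factors fell in shTINCR cells at an adjusted p below 0.05 and that of 0 rose. Over all 4616 genes 8.17% fell, 8.23% rose and 16.4% changed in either direction. The 13 were spread unevenly over the complexes: all 4 EIF2 genes, 6 of 12 EIF3 genes, 1 of 2 EIF1 genes, 1 of 8 EIF4 genes and 1 of 3 EIF5 genes, against 0 of 5 EIF2B genes and 0 of 1 EIF6 gene. The median log2 change was -0.14 over the 35 factors (0.908-fold) and 0.02 over all genes. Among the 13 the median was -0.60 (0.659-fold), against -0.39 (0.764-fold) among all genes that fell. Among the other 22 factors it was -0.01, with values from -0.26 to 0.19. The call depends on the size of the change, so the gap between called and other factors is no separate result. At an unadjusted p below 0.05, 3 of these 22 were added, EIF4A2, EIF3D and EIF6, of which EIF6 was the one with a positive change. The table's 10 lowest changes included 3 initiation factors (EIF4B, EIF3E and EIF2A) and its 100 lowest included 10.

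**Figure D1:**
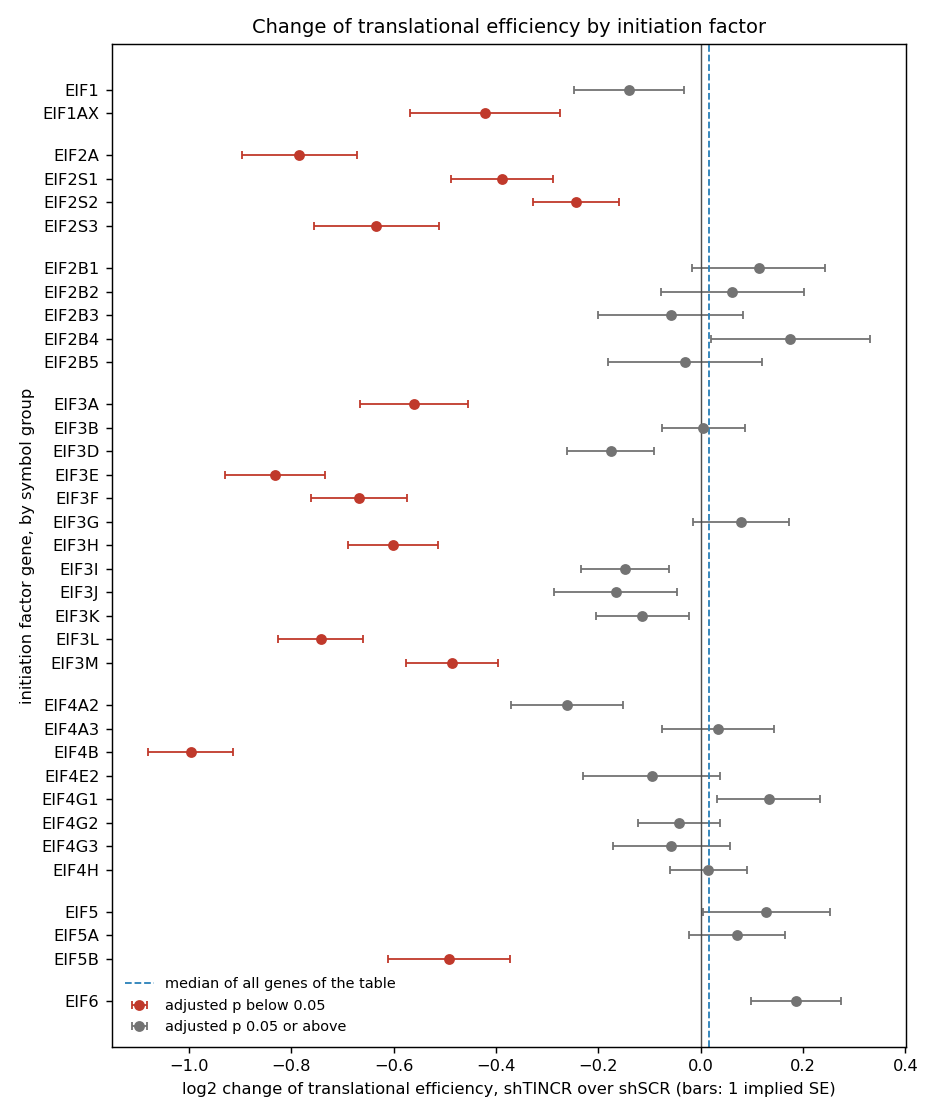
Log2 change of TE, shTINCR over shSCR, for the 35 initiation factor genes, ordered by symbol group from EIF1 at the top to EIF6 at the bottom. Points are the authors' values, bars span 1 implied SE on each side, red marks the 13 genes with an adjusted p below 0.05, and the dashed line is the median of all genes at 0.02. The 4 EIF2 genes all lie left of -0.2 and the 5 EIF2B genes lie between -0.06 and 0.18.

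The starts of the transcripts are shown because 5 of the 8 factors with a pyrimidine start fell, against 3 of the 21 others with an annotated start. RefSeq promoters (GRCh38.p14) were found by symbol for 29 of the 35 factors, and EIF2S2, EIF3A, EIF3E, EIF3G, EIF3H and EIF3L, of which all but EIF3G fell, had no entry. The tract searched was a C at the annotated start followed by at least 4 bases that are each C or T, on the transcribed strand and at any annotated start of the gene. It was held by 8 of these 29 factors (27.6%), against 4.07% of all 35116 promoters and 8.81% of the 3735 table genes with a promoter. The windows below run from 15 bases before the annotated start to 15 bases from it onwards, 5′ to 3′, and capitals mark the tract.
EIF4B (chr12:53006441-53006470, + strand): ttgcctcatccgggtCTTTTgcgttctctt
EIF2A (chr3:150546772-150546801, + strand): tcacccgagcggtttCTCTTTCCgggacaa
EIF3F (chr11:7987322-7987351, + strand): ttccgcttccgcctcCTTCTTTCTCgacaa
EIF2S3 (chrX:24054941-24054970, + strand): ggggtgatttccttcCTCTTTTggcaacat
EIF3M (chr11:32583816-32583845, + strand): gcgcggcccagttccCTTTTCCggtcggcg
EIF4A2 (chr3:186783562-186783591, + strand): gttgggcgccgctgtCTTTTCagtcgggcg
EIF3D (chr22:36529152-36529181, - strand): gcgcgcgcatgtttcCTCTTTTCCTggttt
EIF3K (chr19:38619173-38619202, + strand): ttccgtttccaccacCTCTTCCTgttcccg

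Of these 8 factors the upper 5 fell and the lower 3 did not pass, and all 8 changes were negative, from -0.997 to -0.11 with a median of -0.56. Of the 21 factors with a promoter but no tract, 3 fell (EIF5B, EIF1AX and EIF2S1), and their median was -0.03. The length of the tract did not order the changes: it was 5 bases in EIF4B, which had the lowest change of the 35, and 10 bases in EIF3F, which fell, and in EIF3D, which did not pass. Among the other 321 table genes with such a start 21.8% fell, and among the other 3385 genes without it 6.85% fell. Those 321 include 45 ribosomal protein genes, which made up 23 of the 70 that fell. The 5 initiation factors with the tract that fell all have named pseudogenes, as do EIF4A2 and EIF3K, whereas EIF3D has none. Among the 29 factors with a promoter entry, 1 of the 9 with named pseudogenes but no tract fell, and 2 of the 12 with neither. EIF2S2, EIF3E and EIF3L, which have no promoter entry, have named pseudogenes and fell. Over all 35 factors 9 of 19 with named pseudogenes fell, and 4 of 16 without. The part of reads shared with pseudogenes in these values was not tested. For contrast, the starts of the 3 factors that fell without the tract, and of EIF3B and EIF2B5, which had changes near 0, hold no capitals.
EIF5B (chr2:99337374-99337403, + strand): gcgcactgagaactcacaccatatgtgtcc
EIF1AX (chrX:20141824-20141853, - strand): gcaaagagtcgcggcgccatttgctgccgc
EIF2S1 (chr14:67360313-67360342, + strand): gcgaggaggttccgcatgcgcggtggagtg
EIF3B (chr7:2354812-2354841, + strand): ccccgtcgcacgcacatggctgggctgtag
EIF2B5 (chr3:184135343-184135372, + strand): ggtggcagcttccttgcggaagtggtgacc

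Annotated starts are uncertain by a few bases, and a missing match says only that these letters are not at that position. When the tract was allowed to begin up to 5 bases to either side, a setting chosen after seeing the data, 14 of the 29 factors held it, against 29.8% of the table genes with a promoter and 21.1% of all promoters. The contrast among the factors was then smaller: 5 of the 14 with the tract fell (35.7%, median log2 change -0.17), against 3 of the 15 without it (20%), where the stricter position gave 62.5% and 14.3%.

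**Figure D2:**
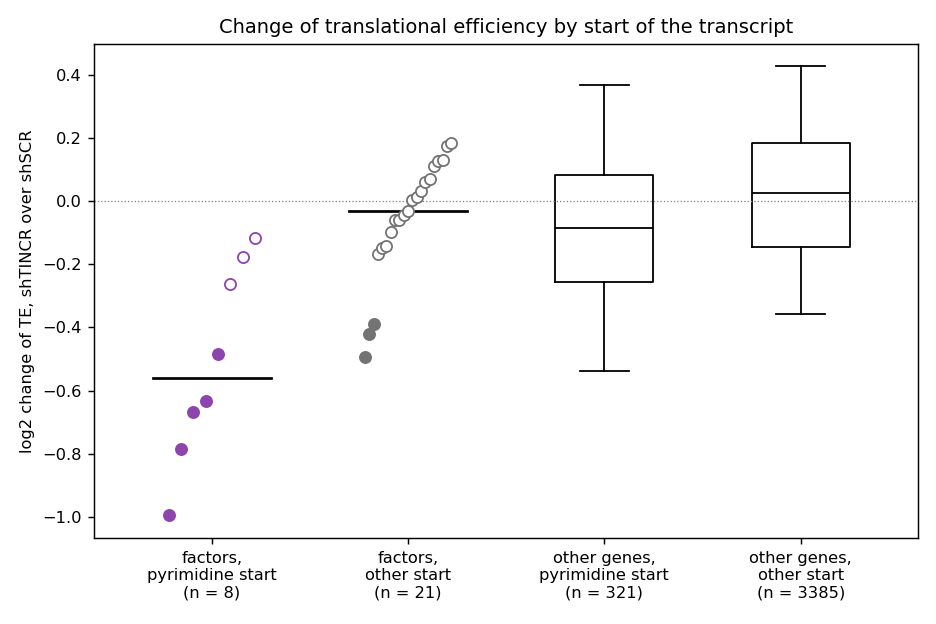
Log2 change of TE, shTINCR over shSCR, by the start of the transcript. Each point is an initiation factor (8 with the pyrimidine start, 21 without), filled where the adjusted p was below 0.05, with a line at the median (-0.56 and -0.03). Boxes give the median and quartiles of the other table genes (321 and 3385), with whiskers at the 5th and 95th percentiles.

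The 3 subunits of eIF2 fell together, and so did EIF2A, which is no subunit of eIF2 but a separate factor that can deliver initiator tRNA. EIF2S1 encodes the α subunit, on which the stress kinases act. It had a log2 TE of -0.83 in shTINCR cells, against -0.44 in shSCR cells, and a log2 change of -0.39 (implied SE 0.0998, adjusted p = 0.00226) per the authors' deposited table. EIF2S2, the β subunit, had -0.96 in shTINCR cells, against -0.71 in shSCR cells, and a change of -0.24 (adjusted p = 0.0293) per the authors' deposited table. That was the smallest size of change among the 13 factors that fell. EIF2S3, the GTP-binding γ subunit, had -1.54 in shTINCR cells, against -0.91 in shSCR cells, and a change of -0.63 (implied SE 0.122, adjusted p = 1.46e-05) per the authors' deposited table. EIF2A had -0.73 in shTINCR cells, against 0.06 in shSCR cells, and a change of -0.78 (implied SE 0.113, adjusted p = 6.82e-10) per the authors' deposited table. The order of the 3 eIF2 subunits by TE was α, β, γ from high to low in both conditions, and their log2 TE spanned 0.711 in shTINCR and 0.467 in shSCR cells.

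The exchange factor eIF2B, which reloads eIF2, had no subunit past the threshold. Its catalytic ε subunit EIF2B5 had a log2 TE of -0.07 in shTINCR cells, against -0.04 in shSCR cells (change -0.03, adjusted p = 0.917), per the authors' deposited table. The regulatory subunits EIF2B1, EIF2B2 and EIF2B4 had changes of 0.11, 0.06 and 0.18, with adjusted p-values of 0.593, 0.81 and 0.474 per the authors' deposited table. EIF2B3, the γ subunit that pairs with ε, had a change of -0.06 (adjusted p = 0.825) per the authors' deposited table. The implied SE of the 5 subunits lay between 0.130 and 0.156. A change of the size seen for EIF2S2 (-0.24) would lie within 2 implied SE of 0 in any of them. Changes of the size seen for EIF2S1 (-0.39), EIF2S3 (-0.63) or EIF2A (-0.78) would lie beyond 2 implied SE in each. Whether eIF2 and eIF2B differ in their change was not tested.

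In eIF3 6 of the 12 subunits with a row fell. In human eIF3 the 8 subunits a, c, e, f, h, k, l and m carry PCI or MPN domains and form its core, and of the 7 with a row 6 fell. Of the subunits outside that core (b, d, g, i and j) 0 of 5 fell. This grouping was chosen after the values were seen, so the counts are a description, and the core was not tested against the other subunits. The median log2 change was -0.60 in the core and -0.15 outside it. By module, f, h and m fell in 3 of 3 cases, e and l fell but d and k did not pass, a fell, and b, g, i and j did not pass.

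EIF3E, which links the core to subunit d, had a log2 TE of -0.61 in shTINCR cells, against 0.22 in shSCR cells, and the lowest change in eIF3 with -0.83 (implied SE 0.0972, adjusted p = 4.47e-15) per the authors' deposited table. EIF3L, its neighbour in the complex, had -1.22 in shTINCR cells, against -0.48 in shSCR cells, and a change of -0.74 (implied SE 0.0839, adjusted p = 4.74e-16) per the authors' deposited table. In shTINCR cells these were the lowest TE values of the 12 subunits. EIF3F, an MPN subunit, had -0.08 in shTINCR cells, against 0.59 in shSCR cells, and a change of -0.67 (adjusted p = 1.91e-10) per the authors' deposited table. Its MPN partner EIF3H had 0.07 in shTINCR cells, against 0.67 in shSCR cells, and a change of -0.60 (adjusted p = 9.79e-10) per the authors' deposited table. EIF3M, the third subunit of that module, had -0.10 in shTINCR cells, against 0.39 in shSCR cells, and a change of -0.49 (adjusted p = 5.46e-06) per the authors' deposited table. The log2 TE of these 3 subunits lay within 0.169 of each other in shTINCR cells and within 0.284 in shSCR cells. EIF3A, the largest subunit and the scaffold of the complex, had 0.12 in shTINCR cells, against 0.68 in shSCR cells, and a change of -0.56 (implied SE 0.106, adjusted p = 8.59e-06) per the authors' deposited table. Its gene holds genes of small nucleolar RNAs, SNORA19 among them.

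The core subunit that did not pass was EIF3K, which had 0.71 in shTINCR cells, against 0.83 in shSCR cells (change -0.11, adjusted p = 0.416), per the authors' deposited table. EIF3D, which can bind the cap of selected mRNAs, had 0.19 in shTINCR cells, against 0.37 in shSCR cells (change -0.18, adjusted p = 0.142), per the authors' deposited table. EIF3K and EIF3D both carry the pyrimidine start. EIF3B, EIF3G and EIF3I, which sit apart from the core at the mRNA entry side, had changes of 0.01, 0.08 and -0.15 with adjusted p-values of 0.971, 0.61 and 0.233 per the authors' deposited table. The loosely bound EIF3J had a change of -0.17 (adjusted p = 0.364) per the authors' deposited table. Over the 12 subunits log2 TE ranged over 1.94 in shTINCR cells (-1.22 for EIF3L to 0.71 for EIF3K) and over 1.31 in shSCR cells (-0.48 to 0.83, for the same subunits). The SD across the subunits was 0.508 in shTINCR and 0.431 in shSCR cells.

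**Figure D3:**
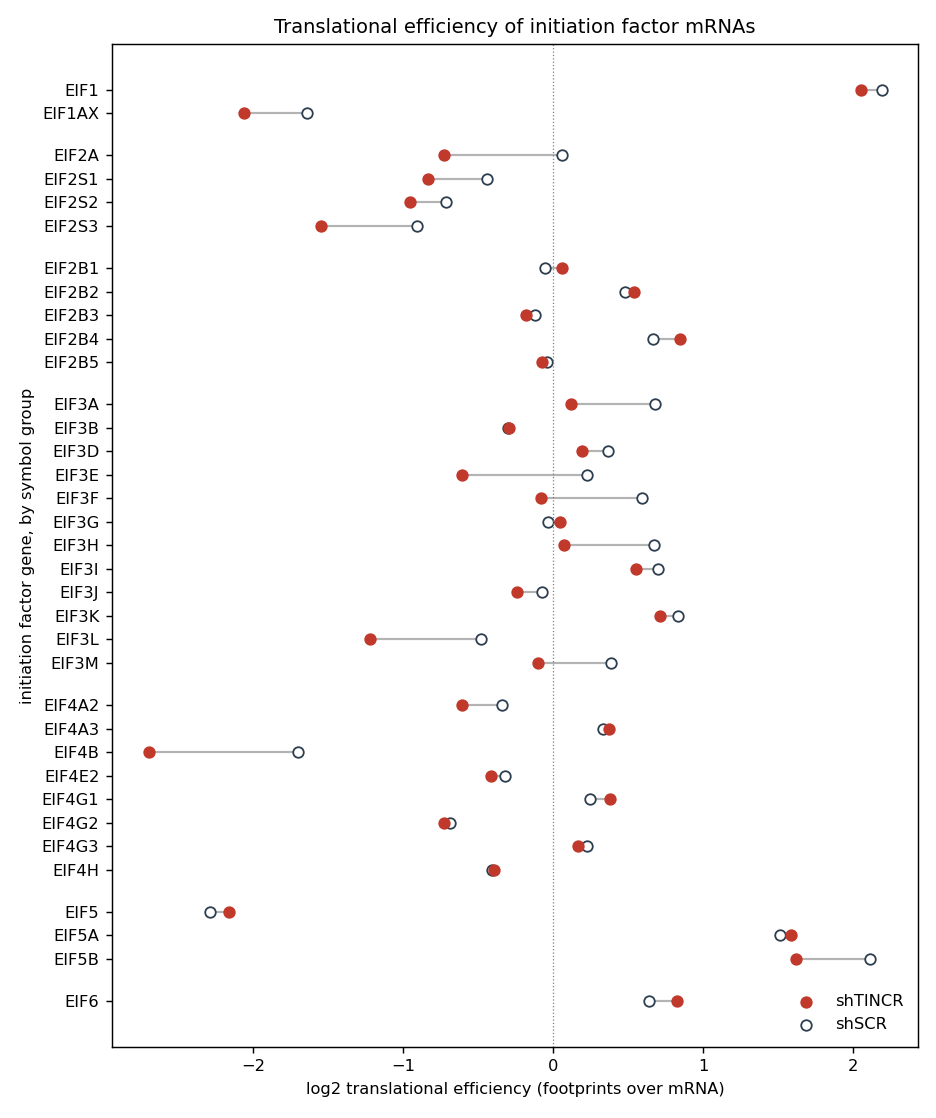
Log2 TE of the 35 initiation factor mRNAs in shTINCR cells (filled) and shSCR cells (open), ordered by symbol group, with a line joining both values of a gene. EIF1 (2.05 and 2.19) and EIF5B (1.62 and 2.11) lie at the right and EIF4B (-2.69 and -1.70), EIF5 (-2.16 and -2.29) and EIF1AX (-2.06 and -1.64) at the left.

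In the EIF4 group 1 of 8 genes fell, and it had the lowest change of all 35 factors. EIF4B, the RNA-binding cofactor of the helicase eIF4A, had a log2 TE of -2.69 in shTINCR cells, against -1.70 in shSCR cells, and a change of -0.997 (0.501-fold, implied SE 0.0832, adjusted p = 5.29e-30) per the authors' deposited table. It stood at the 0.477th percentile of TE over all genes in shTINCR cells and at the 4.07th in shSCR cells. EIF4H, another stimulator of eIF4A, had -0.39 in shTINCR cells, against -0.41 in shSCR cells (change 0.01, adjusted p = 0.92), per the authors' deposited table. The implied SE of EIF4H from the final p-value, 0.0753, was the lowest of the 35.

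The helicase EIF4A2 had -0.61 in shTINCR cells, against -0.34 in shSCR cells (change -0.26, adjusted p = 0.086), per the authors' deposited table. It passed at an adjusted p below 0.1, and its gene holds 5 genes of small nucleolar RNAs. EIF4A3, a helicase of the same family that works in the exon junction complex and not in initiation, had a change of 0.03 (adjusted p = 0.869) per the authors' deposited table. The scaffolds that join the cap-binding protein to eIF4A and eIF3 did not pass either: EIF4G1 had a change of 0.13, EIF4G3 of -0.06 and EIF4G2, a relative that lacks the cap-binding protein's site, of -0.04, with adjusted p-values of 0.394, 0.779 and 0.766 per the authors' deposited table. EIF4E2, a cap-binding homolog that represses translation, had a change of -0.10 (adjusted p = 0.672) per the authors' deposited table.

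Of the factors that inspect the start codon or join the ribosomal subunits, EIF1AX and EIF5B fell. EIF1AX, which promotes scanning, had a log2 TE of -2.06 in shTINCR cells, against -1.64 in shSCR cells, and a change of -0.42 (implied SE 0.147, adjusted p = 0.0323) per the authors' deposited table. EIF1, the gatekeeper of start codon choice, had 2.05 in shTINCR cells, against 2.19 in shSCR cells (change -0.14, adjusted p = 0.401), per the authors' deposited table. EIF1 and EIF1AX thus stood near opposite ends of the table, at percentiles 98.8 and 1.88 in shTINCR cells and 99.3 and 4.38 in shSCR cells. EIF5B, the GTPase of subunit joining, had 1.62 in shTINCR cells, against 2.11 in shSCR cells, and a change of -0.49 (implied SE 0.119, adjusted p = 0.00102) per the authors' deposited table. Its level was high in both conditions, with a TE on the linear scale of 3.07 in shTINCR cells, against 4.32 in shSCR cells.

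EIF5, the GTPase-activating protein of eIF2, had -2.16 in shTINCR cells, against -2.29 in shSCR cells (change 0.13, adjusted p = 0.517), per the authors' deposited table. Its mRNA is known to hold upstream start codons through which eIF5 limits its own synthesis. EIF5A, the hypusine-bearing factor that helps elongation past difficult stretches, had 1.58 in shTINCR cells, against 1.51 in shSCR cells (change 0.07, adjusted p = 0.652), per the authors' deposited table. EIF6, which keeps the large subunit from joining early, had 0.83 in shTINCR cells, against 0.64 in shSCR cells, and the highest change of the 35 with 0.19 (adjusted p = 0.136) per the authors' deposited table.

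Most of the listed partners and regulators of initiation outside the EIF group did not pass. Of 42 genes listed, 30 had a row, 5 fell (16.7%, against 8.17% of all genes), 4 rose (13.3%, against 8.23% of all genes) and 21 did not pass, with a median log2 change of -0.10. The poly(A)-binding proteins, which bridge the tail of the mRNA to eIF4G, fell: PABPC1 by 0.60 (adjusted p = 2.37e-07) and PABPC4 by 0.50 (adjusted p = 0.000316) in log2 units per the authors' deposited table. MCTS1, a recycling and reinitiation factor, fell by 0.45, BZW2, a mimic of eIF5, fell by 0.33, and the phosphatase subunit PPP1CC fell by 0.44 in log2 units per the authors' deposited table. Of the 4 that rose, MKNK2, a kinase of eIF4E, had a change of 0.90 (adjusted p = 0.000243) per the authors' deposited table. The 4E-binding repressor EIF4EBP1 had 0.52 and the eIF2α kinase EIF2AK1 0.39, with adjusted p-values of 0.00335 and 0.0123 per the authors' deposited table. PPP1CA, another phosphatase catalytic subunit, rose by 0.27 in log2 units (adjusted p = 0.0402) per the authors' deposited table. EIF2AK2 and EIF2AK4 had changes of -0.11 and -0.08 and did not pass, and PPP1R15A, which targets the phosphatase to eIF2α, had -0.03 (adjusted p = 0.921) per the authors' deposited table.

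For comparison, 5 of 6 genes with EEF symbols, the elongation factors, fell and 0 rose (median -0.58), and 38 of 77 genes with RPL or RPS symbols fell and 3 rose (median -0.20). Over all 4616 genes 8.17% fell and 8.23% rose. The elongation factors and ribosomal proteins were not tested against the initiation factors.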

How the data were processed

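The analysis used 1 table that the authors deposited for shTINCR over shSCR. It gave no value per library, and 0 further columns of per-sample values were left unused. Per the file headers, the log2 columns deposited by the authors hold TE in each condition and 3 columns of its change (versions 1 and 2, and final), and the deposited p-value columns match these and add the adjusted value. In each of the 4616 rows the final p-value equalled whichever version's was larger. The sources used here do not name the tool behind the table. Per the submitters' processing notes, build hg19, DESeq 1.10.1, HTSeq 0.5.3p9, Bowtie2 2.1.0, CASAVA 1.9, SAMtools 0.1.18 and TopHat2 2.0.8 were used, in unstated roles. A gene was called where its deposited adjusted p, which equals a Benjamini-Hochberg adjustment over all rows, was below 0.05. Folds, medians, percentiles, counts and implied SE (the size of the change over the two-sided normal deviate of the final p-value) were computed with Python 3.11.15, pandas 2.3.3, numpy 2.4.6 and scipy 1.17.1, and figures with matplotlib 3.10.9. Pseudogenes, small nucleolar RNA genes and starts came from RefSeq tables of GRCh38.p14 by symbol. All members may be named, with the listed partners past the threshold. EIF2AK2, EIF2AK4 and PPP1R15A were named after their values were seen. The members, subgroups and lists were chosen with earlier results of these data known.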

Additional observations from a re-analysis of the deposited data

How the results depend on the processing

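No paired analysis was possible because the table holds no value of a single library, and for the same reason no replicate could be left out. The same 13 factors fell with either version of the authors' estimate, and no other factor was added. Of all 4616 genes 402 fell with version 1 and 426 with version 2, against 377 with the final values. None of the 13 could drop out there, because the final p-value is the larger of both versions. Centring on the median of all genes also left 13. It kept the authors' adjusted p and shifted the changes by only 0.02, so it could not remove any of the 13. At an adjusted p below 0.01, 11 factors fell, without EIF1AX and EIF2S2, so the count in EIF1 was 0. Of all 4616 genes 194 fell at that setting. Below 0.1, EIF4A2 was added, which made 14 factors and 2 in EIF4, against 481 of all 4616 genes. With a log2 change of at least 0.3 in size, 12 factors fell, against 321 of all 4616 genes. Without the 5 hosts of small nucleolar RNA genes 12 of 30 fell, against 8.17% of all genes with none left out. Without the 19 factors that have named pseudogenes, 4 of 16 fell (EIF2S1, EIF3A, EIF3H and EIF5B): 1 of 1 in EIF2, 2 of 5 in EIF3, 0 of 3 in EIF4 and 1 of 1 in EIF5. Their median log2 change was -0.04. No factor rose under any of these settings. The tract was held by 14 factors when it could begin within 5 bases of the start. The cause of these shifts was not tested. Depth is unknown, and the implied SE limit what a single factor can show.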

Other observations

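Among the ribosomal protein genes of the table with a RefSeq promoter, the share that fell was alike with and without the tract at the annotated start. Of 45 with the tract 23 fell (51.1%, median log2 change -0.23), and of 18 without it 9 fell (50%, median -0.21). Over all 4616 genes 8.17% fell. Annotated starts are uncertain by a few bases, and some of the 18 held the tract within 5 bases of the start. When the tract could begin there, 26 of 52 with it fell (50%), and 6 of 11 without it (54.5%). At the annotated start, 5 of 8 initiation factors with the tract fell, and 3 of 21 without it. The difference between these gene groups was not tested.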
